A study of Mus musculus with 40 samples.

Results

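Camk2a, Camk2b, Camk2d and Camk2g encode the alpha, beta, delta and gamma forms of calcium/calmodulin-dependent protein kinase II (CaMKII), and their chromatin in brown adipose tissue is described here. The 4 genes were taken by name, of 21938 protein-coding genes in the annotation, and each was examined over its gene body and 20 kb on either side. The 32 peak lists of the study held 457842 peaks, of which 296 lay in these windows: 107 at Camk2d, 107 at Camk2b, 58 at Camk2g and 24 at Camk2a. Camk2d received most attention because its second intron holds Gm15551, the long noncoding RNA that the study was about.

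The tissue was brown fat (called iBAT; the design text of the series writes inguinal, the paper interscapular) of wild type C57BL/6N mice aged 20 weeks. Chromatin immunoprecipitation and sequencing was done for H3K4me3, H3K27ac, H3K4me1 and H3K27me3, with an input for each of 8 samples, here called mice 1, 2, 4, 5, 7, 8, 10 and 11. Mice 1 and 2 were on normal chow (NCD) in the warm, mice 4 and 5 on NCD with 24 h at 4 °C, mice 7 and 8 on a high-fat diet (HFD) in the warm, and mice 10 and 11 on HFD with the same cold exposure. HFD was fed for 12 weeks from the age of 8 weeks. The methods can be read as pooling tissue of 2 mice for each experiment, so that a numbered mouse may be a pool. No animal carried a transgene or deletion.

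CaMKII is a ring-like assembly of many kinase subunits that opens when calcium-loaded calmodulin binds, and that can then phosphorylate itself and stay active after calcium falls. The alpha and beta forms are best known from neurons and the delta and gamma forms from heart and many other tissues. Adrenergic signals, which drive heat production in brown fat, also move calcium in these cells. H3K4me3 marks start sites of transcription, H3K27ac marks active promoters and enhancers, H3K4me1 marks enhancers more broadly, and H3K27me3 marks genes silenced by Polycomb.

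The lists differed greatly in length, from 13517 to 24104 peaks for H3K4me3, 3224 to 40604 for H3K27ac, 12 to 27568 for H3K4me1 and 20 to 6428 for H3K27me3. The H3K27ac list of mouse 7 held 3224 peaks and the H3K4me1 lists of mice 1, 7 and 10 held 592, 12 and 18, so an empty window in these lists carries little information. The deposited files give no read counts, so sequencing depth is unknown. The labelled tissue was checked against marker genes: 4 to 5 of 5 brown adipocyte markers had H3K4me3 at their start in each mouse, against 1 to 4 of 4 endothelial, 1 to 2 of 5 skeletal muscle, 0 to 2 of 5 neuronal, 0 to 2 of 5 macrophage and 0 of 3 hepatocyte markers. General adipocyte markers had H3K4me3 at 3 to 5 of 5. H3K27ac was found at 2 to 5 of 5 brown adipocyte, 3 to 5 of 5 adipocyte and 1 to 4 of 4 endothelial markers. It was at 0 to 1 of 5 skeletal muscle, 0 to 1 of 5 macrophage, 0 of 5 neuronal and 0 of 3 hepatocyte markers. Neither H3K4me3 nor H3K27ac thus set brown adipocyte markers apart from endothelial ones. For H3K4me3, endothelial markers reached 3 or 4 of 4 in every mouse but mouse 7, which had 1. In bulk tissue, a mark on fewer cells of a type and less of the mark per cell cannot be told apart.

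Camk2d (ENSMUSG00000053819.16) runs over 250.0 kb on the plus strand of chromosome 3, chr3:126596302-126846326 in GRCm38, and the longest of its transcripts, Camk2d-226, has 19 exons. No other protein-coding gene reached into its 290 kb window, which held 8 noncoding genes. Of its annotated transcript starts, 16 fell in a cluster at the front of the gene (126596302 to 126597414). The start window of RefSeq is shown because it lies in the one region of Camk2d where every mouse had H3K4me3. The CpG dinucleotides of the window are in capitals.
Camk2d start, chr3:126596701-126597000, plus strand: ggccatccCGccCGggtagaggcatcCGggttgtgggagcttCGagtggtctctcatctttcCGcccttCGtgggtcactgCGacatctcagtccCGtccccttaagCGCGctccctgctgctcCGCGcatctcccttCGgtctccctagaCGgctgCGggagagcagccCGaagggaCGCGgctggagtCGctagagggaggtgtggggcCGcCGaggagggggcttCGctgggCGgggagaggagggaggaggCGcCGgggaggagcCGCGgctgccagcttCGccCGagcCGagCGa
The window held 31 CpG at 70.3% GC. The median over 32851 RefSeq promoter windows of the same length was 7 CpG at 52.7% GC.

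The promoter carried H3K4me3 in 8 of 8 mice, over a region that spanned 3102 bp in all (126595808 to 126598909). Its highest peak was enriched over the local background 32.4-fold in mouse 1 and 43.0-fold in mouse 2 (warm NCD). In the cold on NCD it was 33.4-fold in mouse 4 and 132-fold in mouse 5. Under HFD the warm mice 7 and 8 had 6.49-fold and 14.2-fold, and the cold mice 10 and 11 had 10.9-fold and 29.5-fold. The 4 HFD values thus lay below the 4 NCD values, without overlap and untested. The median fold of H3K4me3 peaks at all annotated starts moved with them. It was 15.3 to 55.96 in the NCD lists and 5.12 to 22.0 in the HFD lists. Its part in the difference was not tested, and how many of those peaks divide by diet without overlap was not counted. Ranked within its own list, the Camk2d promoter peak stood between the 66.2 and the 96.9 percentile of fold enrichment. It was thus in the upper part of every list.

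H3K27ac lay over the same promoter in 7 of 8 mice (126595782 to 126598421), and mouse 7, with the shortest H3K27ac list, was the exception. The fold enrichment was 10.3 and 15.5 in mice 1 and 2 and 2.96 and 21.6 in mice 4 and 5. Under HFD it was 9.69 in mouse 8, which was warm, and 3.04 and 10.6 in the cold mice 10 and 11. The cold mice on NCD, 4 and 5, held the lowest and the highest value, and cold and warm mice overlapped. H3K4me1 had no summit within 1 kb of these starts in any mouse, and H3K27me3 had no peak anywhere in the Camk2d window.

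**Figure D1:**
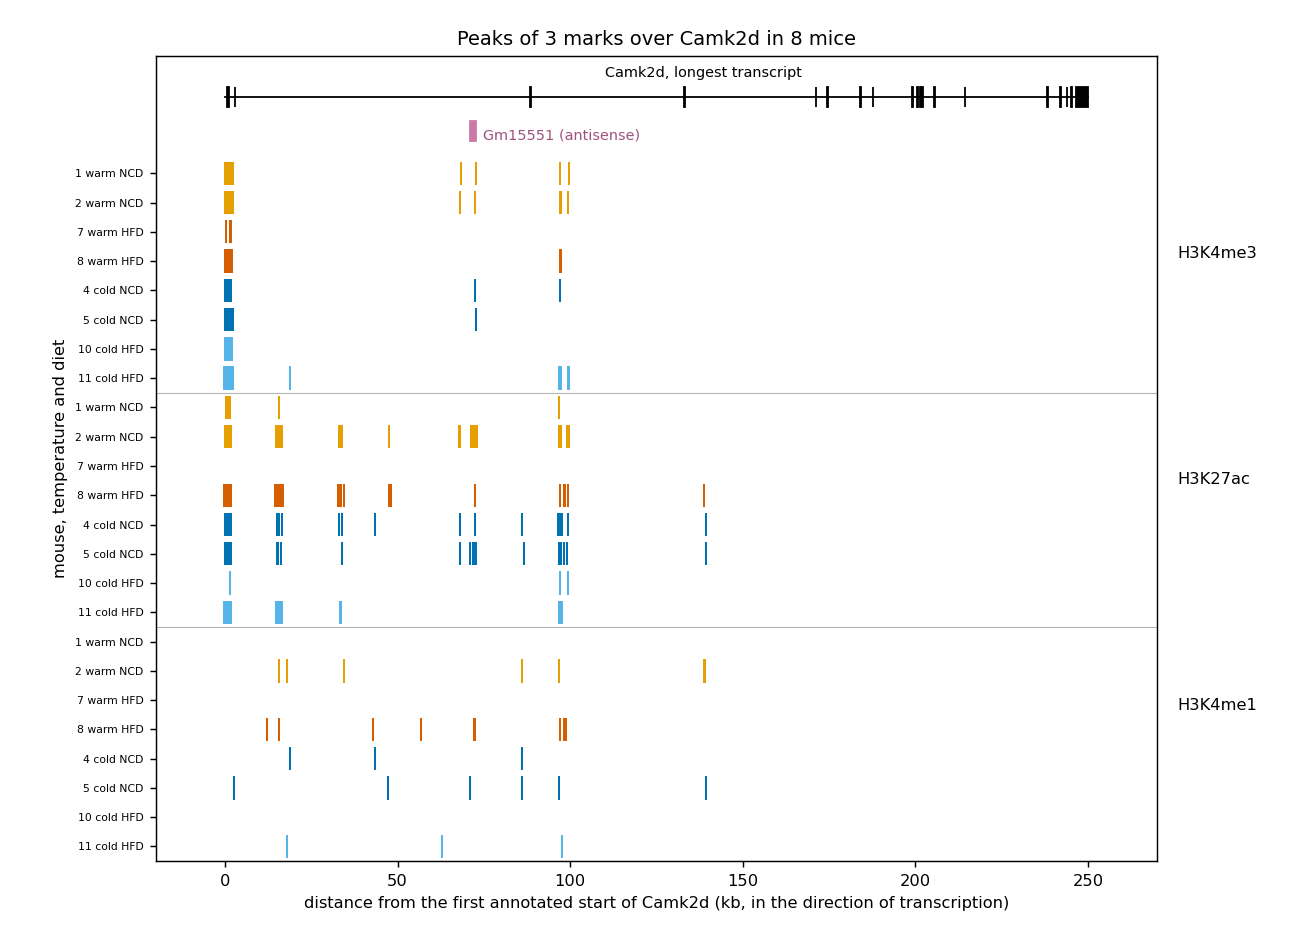
Peaks of H3K4me3, H3K27ac and H3K4me1 in each of the 8 mice along Camk2d, against the distance in kb from its first annotated start, with the gene model and Gm15551 at the top. Each bar is a peak (short peaks are widened to 0.6 kb to be visible), the promoter holds peaks in all 8 H3K4me3 rows and 7 of 8 H3K27ac rows, and no peak is drawn past about 139 kb.

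Camk2d had 40 regions of peaks over all marks, where a region is the union of overlapping peaks of a mark over the 8 mice. They comprised 6 of H3K4me3, 15 of H3K27ac and 19 of H3K4me1. Outside the first exon, 26 lay in intron 2, 8 in intron 3, 3 in intron 4 and 1 in intron 1, and none lay in the 20 kb before the gene. Of the 40, 19 were seen in 1 mouse and 9 in 4 or more.

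The intronic H3K27ac regions seen in most mice stood 15.6, 33.7, 72.3, 97 and 99.4 kb from the first start. The one at 97 kb (126692398 to 126694601, intron 3) was found in 7 mice, all but mouse 7, with a highest peak of 4.60- to 10.1-fold. The one at 15.6 kb (126610488 to 126613450, intron 2) was found in 6 mice, 1, 2, 4, 5, 8 and 11, at 4.22- to 9.11-fold. Both were therefore present in warm and cold mice and under both diets. The region at 33.7 kb was found in mice 2, 4, 5, 8 and 11, at 3.70- to 7.88-fold, and the one at 99.4 kb in mice 2, 4, 5, 8 and 10, at 3.75- to 6.41-fold. Mice 1, 7 and 10, which had the shortest H3K27ac lists, made up all absences from the 5 intronic regions except those of mouse 11 at 72.3 and 99.4 kb.

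The height of each region was also read as the percentile of its highest peak in the list of the same mouse, which does not depend on the scale of a library. For H3K27ac the median percentile over the mice with a peak was 89.0 at the promoter, 71.5 at 72.3 kb, 65.7 at 97 kb and 61.9 at 15.6 kb. At 33.7 and 99.4 kb it was 27.6 and 26.0. By these medians the promoter stood highest, but they are taken over different mice. In mouse 4 the promoter was at the 5.51 percentile against 88.4 at 97 kb, and in mouse 10 it was at 0.32 against 28.4 at 97 kb. For H3K4me3 the median percentile was 80.0 at the promoter, 25.4 at 97 kb and 24.9 at the Gm15551 start, so both intronic H3K4me3 regions were low in their lists.

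Among the places in Camk2d where H3K27ac overlapped another mark in fewer mice were 3 with each mark in 2 or more mice. At 68.0 kb H3K27ac was found in mice 2, 4 and 5 and H3K4me3 in mice 1 and 2. At 86.15 kb H3K27ac was found in mice 4 and 5 and H3K4me1 in mice 2, 4 and 5. At 139.1 kb, in intron 4, H3K27ac was found in mice 4 and 5 and H3K4me1 in mice 2 and 5. Places with H3K4me1 in 1 mouse were at 34.48 kb (H3K27ac in mouse 8, H3K4me1 in mouse 2), 43.2 kb (mouse 4 for both marks) and 47.3 kb (H3K27ac in mice 2 and 8, H3K4me1 in mouse 5). A further H3K27ac peak lay in mouse 8 at 138.8 kb, also with H3K4me1 from mouse 2. The 3 places with each mark in 2 or more mice thus held peaks of NCD mice only. At the others mouse 8 was the only HFD mouse. Diet was not tested at these places, and how many regions in the genome divide in this way was not counted. The H3K4me1 lists of HFD mice 7 and 10 held only 12 and 18 peaks. The H3K27ac peak of mouse 8 at 138.8 kb ended at 126735177, next to the 139.1 kb region, which began at 126735226.

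The 2 most widely shared intronic regions differed in the other marks laid over them. The 97 kb region also carried H3K4me3 in 5 mice (1, 2, 4, 8 and 11, at 5.16- to 6.90-fold) and H3K4me1 in 4 mice (2, 5, 8 and 11). The nearest annotated start, that of Gm15551, was 23354 bp away. Of all H3K4me3 regions found in 5 mice, 56.5% lay over 1 kb from any annotated start. The 15.6 kb region carried H3K4me3 in 0 mice and H3K4me1 in 2 mice (2 and 8). The windows around their median H3K27ac summits are shown to set them against the promoter. In the first, capitals mark matches to the AP-1 motif TGANTCA, and in the second they mark CpG.
Camk2d +15.6 kb, chr3:126611749-126612048, plus strand: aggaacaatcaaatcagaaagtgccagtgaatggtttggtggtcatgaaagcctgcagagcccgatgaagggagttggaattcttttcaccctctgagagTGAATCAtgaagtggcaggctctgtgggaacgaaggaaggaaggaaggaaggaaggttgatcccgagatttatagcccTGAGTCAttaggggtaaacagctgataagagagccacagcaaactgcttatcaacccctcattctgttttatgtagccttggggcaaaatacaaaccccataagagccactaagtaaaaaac
Camk2d +97 kb, chr3:126693138-126693437, plus strand: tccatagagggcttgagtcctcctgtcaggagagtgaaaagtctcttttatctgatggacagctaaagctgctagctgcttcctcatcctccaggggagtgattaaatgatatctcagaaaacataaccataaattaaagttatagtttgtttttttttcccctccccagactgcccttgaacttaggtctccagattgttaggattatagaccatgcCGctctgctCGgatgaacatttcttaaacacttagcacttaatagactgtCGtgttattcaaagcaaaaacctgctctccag
Each held 3 CpG, which equals the median of 9330 windows on H3K27ac regions over 1 kb from any annotated start and seen in 4 or more mice. GC content was 45.7% and 41.7%, against a median of 48.3% in those 9330 windows. The first window had 2 AP-1 matches, a motif found in 9.42% of the distant H3K27ac windows and 7.81% of RefSeq promoters, and the second had no match to any of 7 motifs searched.

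**Figure D2:**
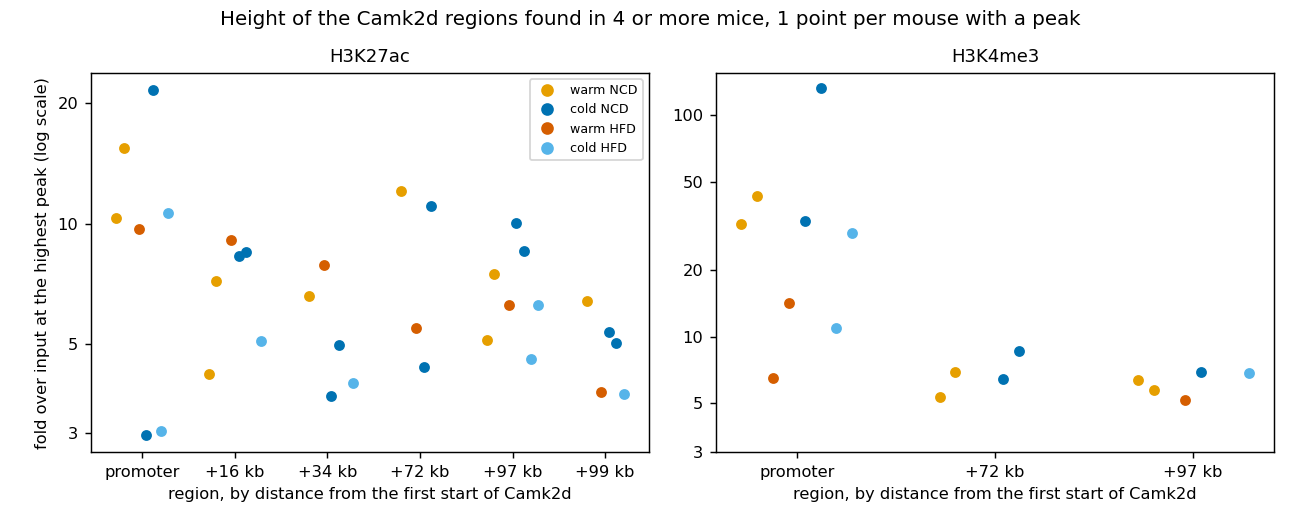
Fold enrichment (log axis) of the highest peak of each mouse in the Camk2d regions seen in 4 or more mice, by mark and distance from the first start. Each point is a mouse, coloured by temperature and diet; the promoter H3K4me3 values run from 6.49 to 132 and the intronic values stay between 3.70 and 12.1.

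Gm15551 lies on the minus strand inside intron 2 of Camk2d, with its start at 126669044. The H3K27ac region over its start (126667044 to 126669479) was found in mice 2, 4, 5 and 8, at 12.1-, 4.39-, 11.1- and 5.48-fold. H3K4me3 there (126668435 to 126669016) was found in mice 1, 2, 4 and 5, at 5.36-, 6.95-, 6.44- and 8.60-fold, and in no HFD mouse. The H3K4me3 peaks of the Camk2d promoter in mice 1, 2, 4 and 5 were thus several times as high as those of Gm15551 in the same lists. The start window of Gm15551 is shown with its TATA-like letters, TATATAA read on either strand, in capitals.
Gm15551 start, chr3:126668894-126669193, minus strand: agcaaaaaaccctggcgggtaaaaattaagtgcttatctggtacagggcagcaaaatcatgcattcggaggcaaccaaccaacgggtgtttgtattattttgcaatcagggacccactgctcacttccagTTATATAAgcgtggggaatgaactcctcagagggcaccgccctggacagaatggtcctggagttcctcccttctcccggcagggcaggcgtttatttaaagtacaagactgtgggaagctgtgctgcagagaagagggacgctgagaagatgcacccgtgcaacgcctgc
The window held 10 CpG at 51.7% GC, between the Camk2d promoter and the intronic windows. It held 2 overlapping matches to the TATA motif, 1 on each strand, which occurred in 3.24% of RefSeq promoters and 1.95% of distant H3K27ac windows.

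The study designed guides that bring a transcriptional activator to the Gm15551 start, and they are shown to place them on this map. The 20-base target is in lower case and the PAM, the 3 bases that Cas9 needs beside it, in capitals.
Gm15551-2, chr3:126669053-126669072, minus strand: cacttccagttatataagcgTGG
Gm15551-3, chr3:126669052-126669071, minus strand: acttccagttatataagcgtGGG
Gm15551-7, chr3:126669181-126669200, plus strand: agggttttttgctaaaacggAGG
They lay between 8 and 156 bases upstream of the Gm15551 start, inside the H3K27ac region and 36 to 165 bp beyond the edge of the H3K4me3 region. None of the 3 touched a region of the Camk2d promoter.

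Beyond these regions Camk2d was bare. The last region of any mark ended at 126735670, which left 110.7 kb of gene body and 130.7 kb of window without a peak in any of the lists. This stretch holds 9 later clusters of annotated starts, from 181.9 to 210.9 kb after the first, and none had a summit of any mark within 1 kb in any mouse. H3K4me1 was scattered: of its 19 regions 14 were seen in 1 mouse, none was seen in 4 or more, and the most shared (126681940 to 126682509 in mice 2, 4 and 5, and 126692796 to 126693230 in mice 2, 5 and 8) were seen in 3 mice each. Only 5 of the 8 H3K4me1 lists had at least 1000 peaks.

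The share of the 290 kb window covered by peaks was used to ask whether cold or diet changed these marks. H3K27ac covered 0.783% in mouse 1 and 3.62% in mouse 2 (warm NCD), 3.16% in mouse 4 and 2.97% in mouse 5 (cold NCD), 0% in mouse 7 and 3.41% in mouse 8 (warm HFD), and 0.381% in mouse 10 and 2.52% in mouse 11 (cold HFD). In 3 of the 4 conditions the 2 mice lay over 2 points apart, and the groups overlapped in both comparisons. Ranked among all protein-coding genes of the same list, the H3K27ac share of Camk2d stood at the 44.0 percentile in mouse 7, where it was 0, and between 62.8 and 76.8 in the other mice. The difference cold minus warm was 0.30 percentage points (n = 4 against 4 mice, exact permutation p = 0.943, adjusted p = 1) and HFD minus NCD was −1.05 points (exact permutation p = 0.257, adjusted p = 1). The p-values were adjusted by Benjamini-Hochberg over all 14980 genes with an H3K27ac peak in any list. The effect of cold differed between the diets by 1.12 points (exact permutation p = 0.714, adjusted p = 1), which is also within the spread of the mice. Single mice set these signs: cold minus warm was −0.09 points without mouse 1 and −0.35 without mouse 7, and the interaction was −0.30 without mouse 1 and −0.59 without mouse 8.

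None of the 14980 genes was called in any of these 3 tests (0% each), and with 4 against 4 mice the smallest p is 0.0286, which cannot pass an adjustment of this size unless many genes reach it together. At an unadjusted p under 0.05, the exact permutation test picked 178 genes for cold, 67 for diet and 4 for the interaction. Over all genes the median difference was 0.37 points for cold and −0.47 points for HFD, the same signs as at Camk2d for this mark.

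H3K4me3 covered 1.60% and 1.66% of the Camk2d window in mice 1 and 2, 1.03% and 1.01% in mice 4 and 5, 0.503% and 1.19% in mice 7 and 8, and 0.898% and 1.61% in mice 10 and 11. Cold minus warm was −0.10 points (n = 4 against 4, exact permutation p = 0.714, adjusted p = 1) and HFD minus NCD was −0.28 points (exact permutation p = 0.429, adjusted p = 0.815), over 16864 genes. Among all genes its percentile was between 34.7 and 48.0, lower than for H3K27ac in every mouse but mouse 7. H3K4me1 covered 0%, 0.883%, 0.271%, 0.766%, 0%, 1.07%, 0% and 0.332% in mice 1, 2, 4, 5, 7, 8, 10 and 11. The differences were −0.14 points for cold (n = 4 against 4, exact permutation p = 0.743) and −0.13 points for HFD (exact permutation p = 0.8286), both with an adjusted p of 1 over 12837 genes. No gene was called for either mark (0% in each of the 4 tests), and at an unadjusted p under 0.05 the exact permutation test picked 85 and 460 genes for H3K4me3 and 0 and 28 for H3K4me1, for cold and diet. Over all genes the median difference was 0.22 points for cold and −0.42 for HFD in H3K4me3, and 0.07 and −0.33 in H3K4me1, so Camk2d had the opposite sign for cold in both marks. The groups overlapped at Camk2d for both marks, and the sign for cold turned to 0.02 points for H3K4me3 without mouse 1, 0.04 without mouse 2, and 0.05 for H3K4me1 without mouse 8.

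In the Camk2d window H3K4me3 covered 0.77 points more than H3K4me1 (exact permutation p = 0.00389, adjusted p = 0.00532, higher in 8 of 8 mice), and H3K27ac covered 1.69 points more (exact permutation p = 0.0127, adjusted p = 0.0282, higher in 7 of 8 mice). These tests permuted the libraries without pairing the marks of a mouse. With that pairing, given further below, both calls held. Of all genes tested, 82.7% were called for the first difference and 56% for the second, in the same direction, so Camk2d did as most genes did. The H3K4me1 lists of mice 1, 7 and 10, of 592, 12 and 18 peaks, gave 0% at Camk2d. In these mice H3K4me1 could not have been the higher mark, at Camk2d or at nearly all genes. The short lists therefore weigh on the counts of mice and on the calls. As summits per 100 kb, H3K4me3 minus H3K4me1 was −0.09, which turns the sign, and as bases per 100 kb covered in the list it was −1.66. The second difference was not called on either scale (exact permutation p = 0.101 as summits and 0.379 as bases covered). That call was also lost without mouse 2, 4, 5, 8 or 11, with differences of 1.52 to 1.62 points.

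Regions were also sorted by whether their peaks divided the 4 mice of a group cleanly from those of its counterpart, every mouse having a peak on one side and no mouse on the opposite side. Among 6 Camk2d regions of H3K4me3, 1 met this for diet, the Gm15551 start described above, and 0 for temperature. Over all 28739 H3K4me3 regions, 0.612% met it for diet and 0.16% for temperature. Of 15 H3K27ac regions, 0 met it for either factor, against 0.0883% for diet and 0.326% for temperature of 47548 regions. Of 19 H3K4me1 regions, 0 met it, against 0.125% for diet and 0% for temperature of 46451 regions. The diet region is the start of the RNA for which the locus was studied, and among peaks with a −log10 q of at least 5 it was found in mice 2, 4 and 5 and in no HFD mouse, so that the clean division no longer held.

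Camk2b (ENSMUSG00000057897.14) runs over 96.7 kb on the minus strand, chr11:5969644-6066362, beside Ykt6, and its longest transcript, Camk2b-209, has 21 exons. Its strongest H3K4me3 was not at its own start. The region around 59 kb into the gene (6006014 to 6008857, intron 3) was found in 8 of 8 mice, and the nearest annotated start, that of Camk2b-213 at 6000448, was 5566 bp away. Its highest peak was 24.8- and 38.1-fold in mice 1 and 2 and 44.3- and 93.5-fold in mice 4 and 5. Under HFD mice 7 and 8 had 8.25- and 11.2-fold, and mice 10 and 11 had 12.8- and 38.1-fold. Mouse 5 was highest and mouse 7 lowest, as at the Camk2d promoter. Of 9836 H3K4me3 regions found in all 8 mice, 685 (6.96%) lay over 1 kb from any annotated start.

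At the first start of Camk2b H3K4me3 was found in 6 mice, all but 7 and 10, at 2.64- to 19.0-fold, below the intronic region in each of them, and H3K27ac had no summit there in any mouse. H3K27ac covered the intronic H3K4me3 region in 7 mice (6006159 to 6008482, 6.25- to 17.4-fold) and a neighbouring region at 63.6 kb in 7 mice (5999727 to 6003549), where H3K4me1 was found in 5. Another 4 H3K27ac regions of the gene body were found in 4 mice each. Within the lists, the H3K27ac peak of the intronic H3K4me3 region had a median percentile of 91.7, and the H3K4me3 peak 82.9 there and 23.4 at the first start. H3K27me3 lay at the first start in mouse 5 alone, whose H3K27me3 list was by far the longest. The RefSeq window at the first start and the window of the intronic H3K4me3 region are shown, with CpG in capitals. The first lies beside the H3K4me3 region of that start (6064934 to 6065584) and does not overlap it.
Camk2b start, chr11:6065699-6065998, minus strand: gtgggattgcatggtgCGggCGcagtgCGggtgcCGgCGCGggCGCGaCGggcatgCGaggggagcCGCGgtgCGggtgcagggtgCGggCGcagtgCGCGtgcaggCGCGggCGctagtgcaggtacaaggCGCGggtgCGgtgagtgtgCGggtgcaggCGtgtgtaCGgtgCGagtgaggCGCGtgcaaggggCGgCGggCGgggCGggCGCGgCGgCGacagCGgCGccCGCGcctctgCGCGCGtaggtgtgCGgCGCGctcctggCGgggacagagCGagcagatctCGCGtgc
Camk2b +59 kb, chr11:6006764-6007063, minus strand: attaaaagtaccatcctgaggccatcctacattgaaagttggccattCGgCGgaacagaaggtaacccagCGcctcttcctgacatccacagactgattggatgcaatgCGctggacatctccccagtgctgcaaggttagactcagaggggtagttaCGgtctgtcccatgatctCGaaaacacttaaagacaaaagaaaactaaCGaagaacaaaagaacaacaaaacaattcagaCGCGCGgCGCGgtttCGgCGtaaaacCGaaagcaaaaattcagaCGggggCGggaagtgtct
The first held 51 CpG at 77.3% GC, against the median of 7 over RefSeq promoter windows. The second held 17 CpG at 48.3% GC, with an observed-to-expected CpG ratio of 0.970, against a median of 0.384 over promoters and 0.196 over distant H3K27ac windows.

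Camk2g (ENSMUSG00000021820.18) runs over 59.2 kb on the minus strand, chr14:20734875-20794088, beside Ndst2 and Zswim8, and its longest transcript, Camk2g-201, has 21 exons. H3K4me3 lay within 1 kb of its first starts (20793966 to 20794088) in 7 mice, all but mouse 7 (20792736 to 20794851, 7.60- to 50.3-fold). H3K27ac there was found in 3 mice (2, 4 and 11), while the most shared H3K27ac of the gene was at 28.6 kb (20764658 to 20767081) in 7 mice, at 4.45- to 12.2-fold. That region overlaps a cluster of internal starts of shorter transcripts (20764252 to 20765509), which had H3K4me3 in mice 4 and 5 and H3K4me1 in mice 2, 4 and 5. Both windows are shown, the first centred on the H3K4me3 summit with CpG in capitals, and the second with its AP-1 match in capitals.
Camk2g upstream H3K4me3 summit, chr14:20794164-20794463, minus strand: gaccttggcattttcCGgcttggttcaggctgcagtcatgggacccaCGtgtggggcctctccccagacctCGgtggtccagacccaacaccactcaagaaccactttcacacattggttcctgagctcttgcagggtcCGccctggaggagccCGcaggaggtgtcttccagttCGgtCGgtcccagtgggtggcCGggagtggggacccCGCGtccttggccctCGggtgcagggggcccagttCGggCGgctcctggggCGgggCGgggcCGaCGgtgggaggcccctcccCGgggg
Camk2g +28.6 kb, chr14:20765303-20765602, minus strand: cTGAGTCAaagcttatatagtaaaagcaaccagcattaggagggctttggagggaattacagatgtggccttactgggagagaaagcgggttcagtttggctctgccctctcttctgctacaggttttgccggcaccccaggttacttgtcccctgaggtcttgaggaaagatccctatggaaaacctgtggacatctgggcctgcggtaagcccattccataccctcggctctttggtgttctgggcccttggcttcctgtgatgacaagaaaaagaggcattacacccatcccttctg
The first lies just upstream of the Camk2g starts and holds the start of a noncoding gene, Gm30108, at 20794239, so H3K4me3 of Camk2g and of Gm30108 cannot be told apart. The first held 18 CpG at 69% GC and the second 4 CpG at 51.3% GC. Camk2g had no H3K27me3 peak, and its H3K4me1 peaks came from mice 2, 4 and 5. Upstream of the gene, about 11 kb before the start, H3K27ac (20804984 to 20805797) and H3K4me1 (20805027 to 20806645) lay together in the same mice 2, 4 and 5.

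Camk2a (ENSMUSG00000024617.16) runs over 62.5 kb on the plus strand, chr18:60925618-60988152, beside Arsi and Slc6a7, and its longest transcript, Camk2a-203, has 18 exons. Neither H3K4me3 nor H3K27ac had a summit at its first start in any mouse, whereas the other 3 genes had H3K4me3 there in 6 or more. A peak of H3K27me3 lay there in mouse 5 (60925222 to 60925589, 6.61-fold). An internal start 37.9 kb into the gene had H3K4me3 in mouse 4 and H3K4me1 in mice 2, 4 and 5. The most shared mark within the gene was H3K4me3 over exon 15 (60977800 to 60978550), found in mice 1, 2, 4, 5 and 11 at 4.35- to 9.09-fold. Like 56.5% of H3K4me3 regions found in 5 mice, this region lay over 1 kb from any start, 14200 bp from the nearest. H3K27ac was found in mice 2, 10 and 11 only, past the end of the gene.

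**Figure D3:**
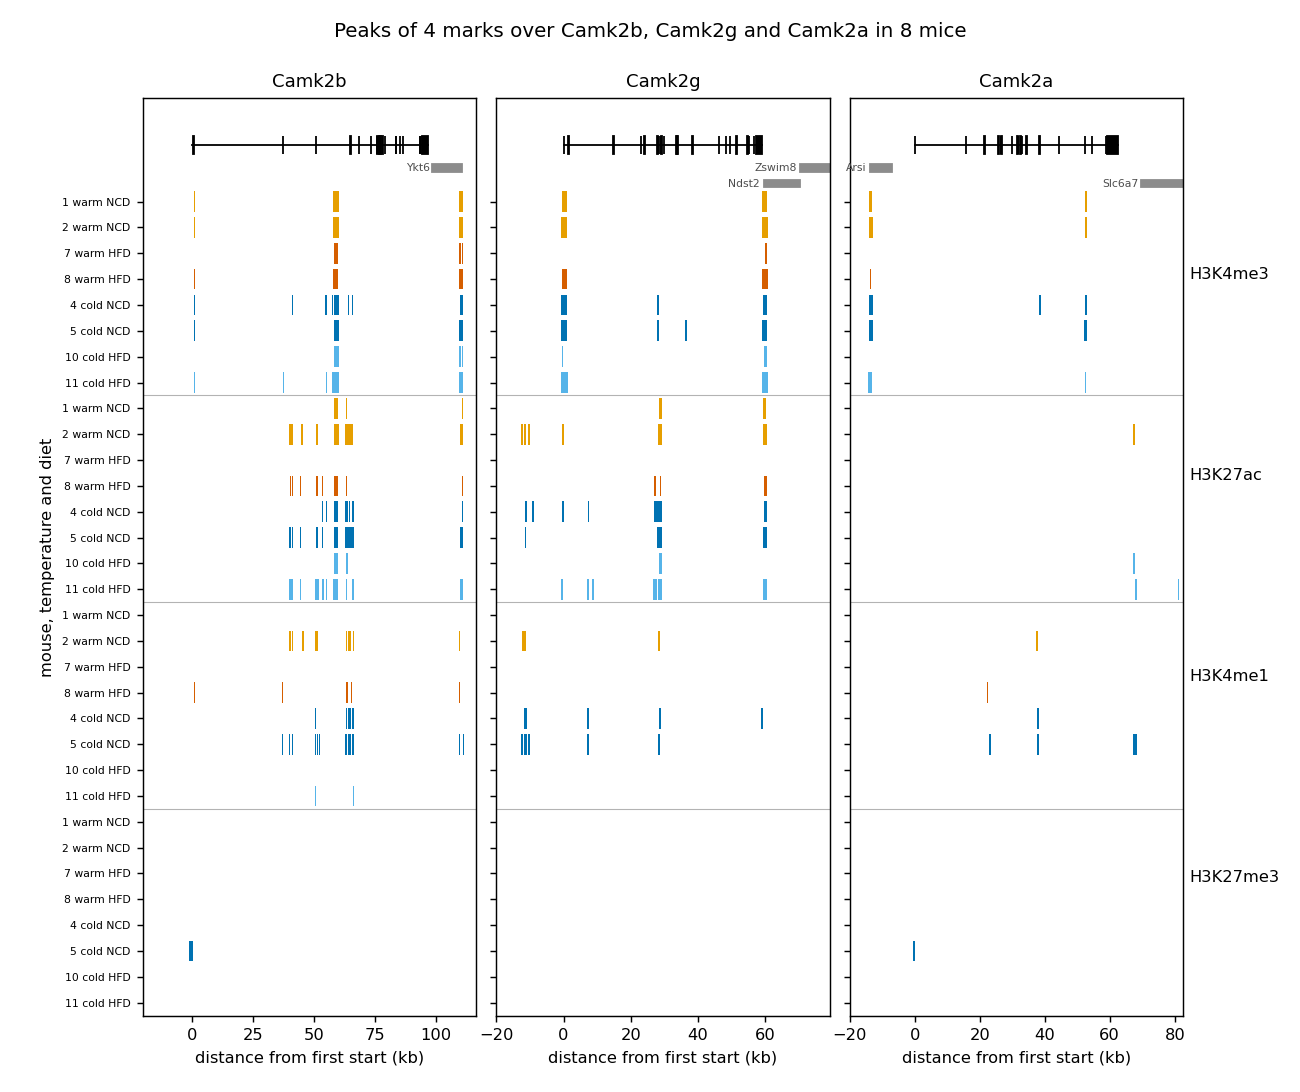
Peaks of 4 marks in each mouse along Camk2b, Camk2g and Camk2a with 20 kb on each side, against the distance in kb from the first start in the direction of transcription, with genes that reach at least 2 kb into a window drawn at the top (short peaks widened to 0.5 kb). Camk2b shows H3K4me3 in all 8 mice near 59 kb, Camk2g shows H3K27ac in 7 mice near 28.6 kb, and Camk2a shows no H3K4me3 at 0.

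The covered share ranked Camk2b highest for both marks. It counts all peaks of a window, also those of neighbouring genes. The windows of Camk2b and Camk2g include the starts of Ykt6 and Ndst2, which had H3K27ac in 6 mice each. For H3K27ac the mean was 3.87% ± 2.65 (SD, n = 8) at Camk2b, 2.43% ± 1.82 at Camk2g, 2.10% ± 1.47 at Camk2d and 0.183% ± 0.295 at Camk2a. Within mice, Camk2d was above Camk2a by 1.92 points (higher in 7, equal in 1; exact sign-flip permutation p = 0.0156) and below Camk2b by 1.77 points (lower in 7, equal in 1; exact sign-flip permutation p = 0.0156). Camk2d and Camk2g, neighbours in this order, differed by −0.33 points (exact sign-flip permutation p = 0.5, Camk2d higher in 3 mice and lower in 4), less than the spread between mice.

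For H3K4me3 the mean was 3.17% ± 0.785 (SD, n = 8) at Camk2b, 2.87% ± 1.18 at Camk2g, 1.19% ± 0.411 at Camk2d and 0.970% ± 0.808 at Camk2a. Camk2d was lower than Camk2b in 8 of 8 mice, by 1.98 points (exact sign-flip permutation p = 0.00781), and lower than Camk2g in 8 of 8, where the difference was −1.68 points (exact sign-flip permutation p = 0.00781, the smallest that 8 mice allow). It was 0.22 points above Camk2a (exact sign-flip permutation p = 0.398), higher in 5 mice and lower in 3. These are raw p-values of 6 comparisons. H3K4me3 at the starts of Ykt6 (8 mice), Ndst2 (8 mice) and Arsi (6 mice) is counted in the windows of Camk2b, Camk2g and Camk2a. Camk2d has no such coding neighbour, so the shares are not of the kinase genes alone. The differences from Camk2b and the H3K27ac difference from Camk2a kept their direction and call for the gene body alone. The others moved: for H3K4me3 over the gene body Camk2d minus Camk2g was −0.46 points (exact sign-flip permutation p = 0.227) and Camk2d minus Camk2a was 0.74 points (exact sign-flip permutation p = 0.0312), and for H3K27ac Camk2d minus Camk2g turned to 0.22 points. Undivided by window length, as bases per 100 kb covered in the list, Camk2d, which has the longest window, was above Camk2g in H3K27ac by 13.98 bp (exact sign-flip permutation p = 0.0156) and above Camk2a in H3K4me3 by 11.3 bp (exact sign-flip permutation p = 0.00781). On that scale the called differences from Camk2b in H3K27ac and from Camk2g in H3K4me3 also turned, to 2.34 bp (exact sign-flip permutation p = 0.531) and 3.08 bp (exact sign-flip permutation p = 0.0859), neither past the threshold.

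At the other kinase genes no difference between conditions passed the test. For cold minus warm the H3K27ac share differed by 1.57 points at Camk2b (n = 4 against 4, exact permutation p = 0.514), 1.72 at Camk2g (exact permutation p = 0.2) and 0.15 at Camk2a (exact permutation p = 0.714). For HFD minus NCD it differed by −1.86 points at Camk2b (exact permutation p = 0.257), −1.63 at Camk2g (exact permutation p = 0.257) and 0.15 at Camk2a (exact permutation p = 0.714). All 6 adjusted p-values were 1, and the groups overlapped in each case.

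**Figure D4:**
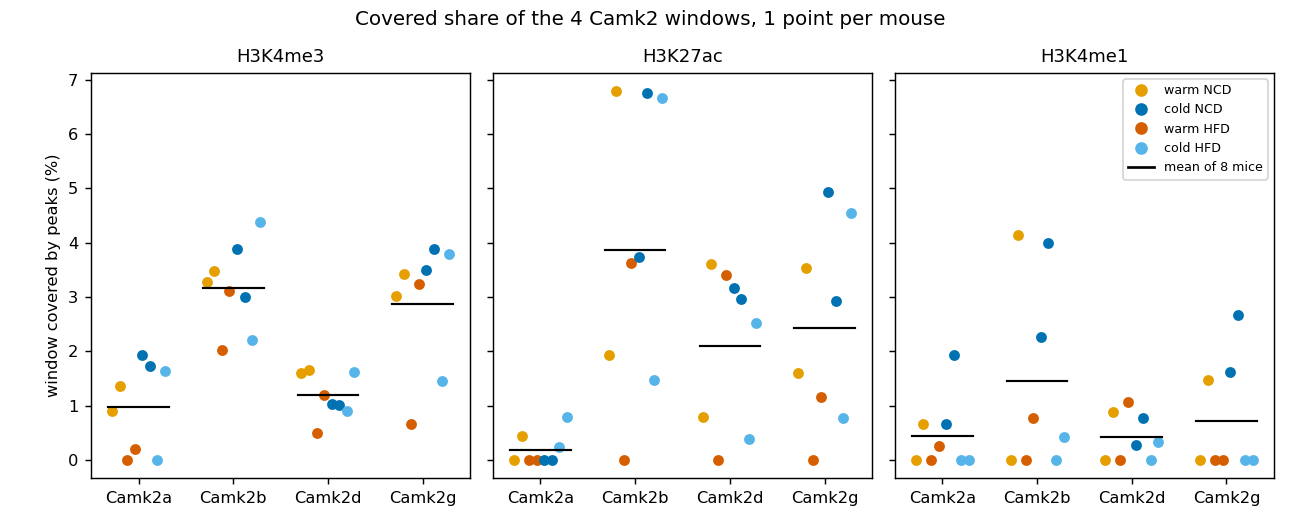
Percent of each Camk2 window (gene body and 20 kb on each side) covered by peaks of each mark, 1 point per mouse coloured by temperature and diet, with a line at the mean of 8 mice. Camk2b lies highest for H3K27ac (mean 3.87%) and Camk2a lowest (0.183%), and the points of the 4 conditions intermingle.

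The windows read at the Camk2 genes were compared by their letters, with no test. Those at the starts of Camk2d and Camk2b and just upstream of Camk2g held 31, 51 and 18 CpG and 3, 3 and 4 matches to the GC box GGGCGG, which 35.7% of RefSeq promoters and 5.33% of distant H3K27ac windows contain. The window of intron 3 of Camk2b, with H3K4me3 in all mice, held 1 GC box and 1 CCAAT box, a motif of 37.4% of promoters and 30.7% of distant windows. The window with the most CpG, at the Camk2b start, overlapped no H3K4me3 or H3K27ac region. The H3K4me3 region of that start (6064934 to 6065584) lay beside it. The Camk2b start window was placed by annotation and not by a peak summit, so it cannot show whether CpG number follows the marks. The Gm15551 start held 1 GC box. The H3K27ac window at 63.6 kb in Camk2b held 1 CpG, 1 CCAAT box and no GC box. The H3K27ac windows within Camk2d (15.6 and 97 kb) and Camk2g (28.6 kb) held 3, 3 and 4 CpG and no GC box. No window held the cAMP response element TGACGTCA (1.79% of promoters, 0.289% of distant windows) or the nuclear receptor motif AAGGTCA (4.72% and 11.3%). The motif TTGCNNAA of C/EBP proteins (10.8% and 12.5%) occurred once, at the Gm15551 start. All motifs were searched on both strands, and a match is a run of letters, not a site shown to be bound.

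The genes around CaMKII were examined through 6 lists. All 3 calmodulin genes, whose product switches CaMKII on, had H3K4me3 at a start in 8 mice and H3K27ac in 7. The 2 genes of CaMKII inhibitor proteins had H3K4me3 in 7 mice each and no H3K27ac. Among 7 other calmodulin-dependent kinase genes, 1 (Camk1) had H3K4me3 in 8 mice. Camk1d, Camk4, Camkk1 and Camkk2 had it in 7 mice, Pnck in 3 and Camk1g in 0. Calcineurin, the calcium-activated phosphatase, had 4 of 5 genes with H3K4me3 in 8 mice, and calcium release and uptake 3 of 11, namely the IP3 receptors Itpr1 and Itpr2 and the calcium pump Atp2a2. In the calcium list Ryr2 and Itpr3 had H3K4me3 in 7 mice, Atp2a3 in 6 and Ryr1 in 3, and the remaining genes in 0. All 6 genes of transcription regulators that CaMKII acts on had H3K4me3 in 8 mice. Beside these, the Camk2d promoter, with 8 and 7 mice for the 2 marks, was like the calmodulin genes, and Camk2a was unlike them. A peak anywhere in the window, a looser measure, was common. From 25.1% to 41.8% of all protein-coding genes, by list, had no H3K4me3 peak in their window. The share of all genes with H3K4me3 at a start in 8 mice was not counted. No likeness particular to these lists can therefore be read from the counts.

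No gene of the 6 lists was called for cold or diet in any of the 3 marks (exact permutation tests with Benjamini-Hochberg adjustment over all genes). At an unadjusted p under 0.05 there were 2, from 34 genes in 6 comparisons, while over all genes 1.19% passed it upward for cold in H3K27ac and 2.66% downward for HFD in H3K4me3. The 2 are therefore no result about the lists. Ryr2, a calcium release channel, had an H3K27ac share 0.53 points higher in the cold (exact permutation p = 0.0286, adjusted p = 1). Camk4 had an H3K4me3 share lower by HFD, at −0.13 points (exact permutation p = 0.0286, adjusted p = 0.675). The list medians for H3K27ac were between 0.01 and 0.70 points for cold and between −1.35 and −0.01 for HFD, beside medians of 0.37 and −0.47 over all genes.

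**Figure D5:**
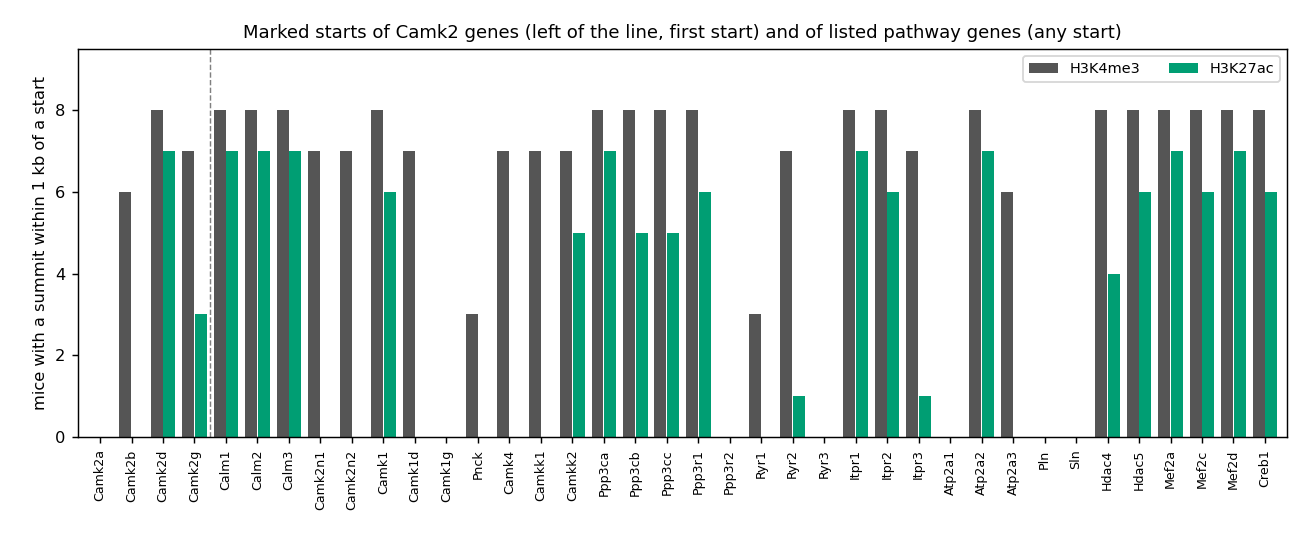
Number of mice, of 8, with an H3K4me3 or H3K27ac summit within 1 kb of the start of each Camk2 gene (first start) and of the genes around CaMKII (any start). Camk2d reaches 8 and 7, Camk2b 6 and 0, Camk2g 7 and 3, and Camk2a 0 and 0.

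The genes whose covered share was most like that of Camk2d over the 32 lists, by Pearson correlation among 9803 genes with peaks in at least 16 lists, were Kif1b (0.974), Ric1 (0.973), Sdccag8 (0.970), Elk4 (0.970) and Znrf2 (0.969). Camk2b and Camk2g had correlations of 0.858 and 0.747. The lists share marks and differ in length, which all genes follow, so these values describe the lists as much as the genes.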

How the data were processed

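Per the labels, histone marks were profiled by ChIP-seq in brown fat of 8 mice, with 4 marks and an input for each, giving 40 samples and 32 peak lists. The authors trimmed reads with cutadapt, aligned them to GRCm38 with Bowtie2 and called peaks with MACS2 against input, for each sample separately; deepTools is also named. Tool versions: not given in the sources used here. Each deposited narrowPeak list gives a fold enrichment over local background at the summit (a ratio), the −log10 of the p-value and q-value, and a deposited score, which is 10 times the −log10 q and was not used. Fold enrichments were compared between mice as descriptions only. The inputs were not used here. Read depth is unknown, so no counting interval was set.

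Genes came from GENCODE M21 and sequences from the RefSeq windows and genome of GRCm38.p6. The covered share is the percent of a window (gene body and 20 kb on each side) under peaks. A region is the union of peaks of a mark that overlap by at least 1 bp over the 8 mice, and a peak was at a start when its summit lay within 1 kb. Cold was compared with warm and HFD with NCD, 4 against 4 mice, by two-sided exact permutation over all 70 assignments for every protein-coding gene with a peak of the mark in any list, and p-values were adjusted by Benjamini-Hochberg over all such genes. The interaction used 2520 assignments, marks were compared 8 against 8 (12870 assignments), and Camk2 genes were compared with each other within mice by all 256 sign flips. The tests were tested on simulated data. Mouse numbers pair the marks of one animal and never the conditions. The p-values measure the spread between these samples. Named were the 4 Camk2 genes and Gm15551, regions of Camk2d in at least 4 mice, coding neighbours (1 is not reported here), 6 lists of genes around CaMKII and the 5 genes most correlated with Camk2d. The members and lists were chosen with earlier results of these data known. Python 3.11.15, numpy 2.4.6, pandas 2.3.3, scipy 1.17.1 and matplotlib 3.10.9 were used.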

Additional observations from a re-analysis of the deposited data

Results flagged for a closer look

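The H3K27ac covered share of Camk2a stood out in 2 overlapping groups of mice. Mouse 2 had 0.433% of the window covered, while the other 3 warm mice had 0%, and the other 3 NCD mice also had 0%. Both rest on the same value, from a single peak past the end of the gene. Of 30 groups of mice examined at the Camk2 genes, 2 stood out by the gap to the nearest mouse, and about 1.5 are to be expected by chance.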

How the results depend on the processing

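Of 326 values recomputed for 27 results, 288 kept their direction and call and 21 turned their sign. No call for cold or diet appeared under any alternative. Among peaks with a −log10 q of at least 5, Camk2d cold minus warm was 0.0180 points for H3K4me3 and HFD minus NCD was 0.12 for H3K4me1, and no H3K4me3 region was divided by diet (0). As bases per 100 kb covered in the list, HFD minus NCD was 8.00 bp for H3K4me1, H3K4me3 minus H3K4me1 was −1.66, H3K27ac minus H3K4me1 was 7.09 (not called), Camk2d minus Camk2b 2.34 and minus Camk2g 13.98 in H3K27ac, and Camk2d minus Camk2g 3.08 and minus Camk2a 11.3 in H3K4me3. As summits per 100 kb, H3K4me3 minus H3K4me1 was −0.0862, H3K27ac minus H3K4me1 was 1.34 (not called) and Camk2d minus Camk2a in H3K4me3 was −0.43. Over gene bodies alone, Camk2d minus Camk2g was 0.22 points in H3K27ac and −0.46 in H3K4me3, and minus Camk2a 0.74 in H3K4me3. The causes were not tested.

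Leaving out each mouse in turn, Camk2d H3K27ac cold minus warm ranged from −0.348 to 0.928 points and the interaction from −0.586 to 2.83. For H3K4me3, cold minus warm lay between −0.346 and 0.0397. For H3K4me1, cold minus warm lay between −0.307 and 0.0480 and HFD minus NCD between −0.369 and 0.00394. H3K27ac minus H3K4me1 ranged from 1.52 to 1.93, with the call lost without mouse 2, 4, 5, 8 or 11. At Camk2a both H3K27ac differences ranged from −0.0315 to 0.257. The number of Camk2d regions divided by diet ranged from 0 to 1 for H3K27ac and for H3K4me1, with 1 each without mouse 1.

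With 1 exception allowed among the mice, 1 H3K27ac and 1 H3K4me1 region of Camk2d were divided by diet. With mice 1, 7 and 10 left out for their short H3K4me1 lists, an alternative chosen after seeing the data, HFD minus NCD for H3K4me1 was 0.0593 points, and 1 H3K4me1 region was divided by temperature and 1 by diet. With the replicate block, which pairs the marks of an animal, H3K4me3 minus H3K4me1 was 0.77 points (exact permutation p = 0.00781, adjusted p = 0.0121) and H3K27ac minus H3K4me1 was 1.69 points (exact permutation p = 0.0156, adjusted p = 0.0351), and both calls held. The lengths of the lists limit all of this, since a peak absent from a short list may be a peak not called.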

Other observations

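In the H3K27ac list of mouse 4, peaks at promoters stood lower than elsewhere. The Camk2d promoter peak had a fold enrichment of 2.96, against 8.29 at 15.6 kb and 10.1 at 97 kb in the same list, although other intronic peaks of Camk2d in this mouse stood low too, at the 14.6 percentile at 33.7 kb and the 31.1 percentile at 72.3 kb, and the peaks over the starts of Ykt6 and Ndst2, neighbours of Camk2b and Camk2g, had 2.6 and 2.35. Over the whole list, peaks within 1 kb of an annotated start had a median fold percentile of 42.0 and the others 52.8. Mouse 7 was alike, at 42.4 and 53.1, while in the other 6 lists peaks at starts had a median percentile of 54.5 to 64.4. The values are given without an explanation.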
